A study of Mus musculus with 8 samples.

Results

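Receptors for the cytokines interleukin (IL)-17 and IL-22, together with epithelial genes that these cytokines are known to induce, were examined in intestinal epithelial cells (IECs) of mice with and without CD1d. The 10 genes were the receptors Il22ra1, Il17ra and Il17rc and the targets Socs3, Lcn2, Saa1, Saa2, Saa3, Pigr and Steap4, which were 10 of the 25239 genes listed in the count table. Live EpCAM+CD45-CD31-Ter119- cells had been sorted from proximal small intestinal crypts, and RNA was measured by bulk sequencing of poly(A) libraries. There were 4 CD1d-KO samples, from mice with a germline deletion of both Cd1d1 and Cd1d2 (labelled CD1d1/2 KO), and 4 wild-type (WT) samples, from C57BL/6Jax mice. All 8 mice were untreated young adults kept under specific pathogen-free conditions, and each sample came from 1 mouse. The study's methods describe the genotypes as matched for age and sex. The study also states that its mice were not littermates and that this could alter their gut microbiota, the part of which was not tested here. CD1d is the molecule that shows lipids to natural killer T (NKT) lymphocytes, and CD1d-KO mice lack these lymphocytes in every tissue, so that the model removes both the epithelial molecule and the NKT cells. The samples came from separate experiments, but which sample belonged to which experiment was not given.

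IL-17A and IL-17F, made mainly by T cells and innate lymphocytes, signal through a receptor pair of IL17RA and IL17RC, the adaptor ACT1 (gene Traf3ip2) and NF-kB and C/EBP transcription factors. IL-22, from the same groups of lymphocytes, signals through IL22RA1 paired with IL10RB and chiefly through the transcription factor STAT3. In the gut both cytokines act on the epithelium, where they raise antimicrobial proteins, mucosal transport of antibody and feedback inhibitors. Many of these targets also respond to other cytokines and to microbial products.

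Sequence just upstream of the annotated start was available in RefSeq for 9 of the 10 genes (GRCm38.p6, the assembly that mm10 names), and 250 bases were searched on both strands for the STAT motif TTCNNNGAA, the C/EBP motif TTGCNNAA and an NF-kB consensus. The motifs occurred in 7.02%, 9.56% and 7.25% of 32851 windows of this length. They were found in 2, 5 and 2 of the 9 windows. The 5 with the C/EBP motif count Saa1 and Saa2 separately, although their windows were identical at 95.6% of 249 aligned bases. The stretches that hold the motifs are shown for the target genes described most below, read 5′ to 3′ on the gene's strand, with every match in capitals. Socs3 holds the STAT motif (chr11:117969501-117969530, minus strand), and Saa1 (chr7:46743144-46743173, minus strand) and Saa2 (chr7:46751639-46751668, plus strand) hold the same C/EBP match at nearly the same distance from the start.
Socs3: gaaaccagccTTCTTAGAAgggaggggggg
Saa1: ctgtgctcccaTTGCACAAtgagggagaat
Saa2: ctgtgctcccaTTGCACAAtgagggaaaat
Lcn2 holds 1 C/EBP match (chr2:32387740-32387989, minus strand), at positions -216 to -209 counted from the start. Steap4 (chr5:7960222-7960471, plus strand) was the only 1 of the 9 with all 3 motifs, its matches being, in order, 2 of NF-kB, then STAT and C/EBP. These matches are descriptions of letters, and binding was not measured. For Saa1, Saa3 and Socs3 RefSeq also lists longer transcripts that begin upstream of the start used here.
Lcn2: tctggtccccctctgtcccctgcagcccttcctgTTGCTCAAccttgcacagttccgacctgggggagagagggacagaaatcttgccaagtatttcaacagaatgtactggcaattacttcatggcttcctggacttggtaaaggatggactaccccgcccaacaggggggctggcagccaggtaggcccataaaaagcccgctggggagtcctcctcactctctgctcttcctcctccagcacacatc
Steap4: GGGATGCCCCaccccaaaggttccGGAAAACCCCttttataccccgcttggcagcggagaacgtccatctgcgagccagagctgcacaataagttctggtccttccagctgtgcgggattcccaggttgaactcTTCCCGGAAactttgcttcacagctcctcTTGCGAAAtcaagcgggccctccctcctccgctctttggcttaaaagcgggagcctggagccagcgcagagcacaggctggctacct

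Total counts ranged from 23610266 to 31629435 per sample. Cd1d1 was 0 to 7.15 normalised counts in the CD1d-KO samples and 61.1 to 91.1 in the WT samples (log2 fold change -4.34 ± 0.45, SE; DESeq2 adjusted p = 1.08e-18), which matched every label. The 8 epithelial markers were present in all samples, with 0 of 8 called. Among them Epcam (0.08, adjusted p = 0.367) was slightly higher in every CD1d-KO sample than in any WT sample. Of 15 villus enterocyte markers 0 were called, but they leaned higher in CD1d-KO, with 2 of the 15 lower and a median log2 fold change of 0.17. Libraries nevertheless differed in other ways, some of which followed genotype and cannot be told apart from it. CD1d-KO 1 and CD1d-KO 2 had Y-linked counts (Ddx3y 1722 and 2053) and the other 6 samples had at most 1.05. By this marker the sequenced genotypes were not matched for sex, since no WT sample had such counts. Transcripts of stomach epithelium were higher in WT, with a summed level of 64.4 to 142 TPM (transcript counts scaled for length and depth) in CD1d-KO and 215 to 1341 in WT, and 7 of the 15 tested stomach markers were called, 6 of them lower. Leukocyte transcripts were scarce. Of T and innate lymphoid markers 2 of 8 tested were called (Cd3g and Cd8a), and of myeloid and neutrophil markers 2 of 5 (Itgam and Cd14), all lower in CD1d-KO. The summed levels of these lists were 57.3 to 68.7 and 29.9 to 43.2 TPM in CD1d-KO and 56.1 to 94.3 and 42.6 to 66.8 TPM in WT, and that of the B and plasma cell list was 2.70 to 4.31 TPM in CD1d-KO and 5.76 to 27.9 in WT. Ptprc, which encodes CD45, changed by -0.83 (adjusted p = 0.0877), and Jchain, a plasma cell gene, by -4.47 (adjusted p = 0.0055), with 455.5 and 99.6 normalised counts in WT 1 and WT 2. Genes largely restricted to neutrophils, chosen after their values were seen, had at most 10 counts in any sample. Of the 16 genes of the myeloid and neutrophil list, Cxcr2, Ly6g, Elane, Mpo and Retnlg were at 0 in all 8 samples, Csf3r had 10 and 1 counts in WT 1 and WT 2 and 0 elsewhere, Ngp had 2 counts in CD1d-KO 1 alone, and Camp had 1, 0, 0 and 2 in CD1d-KO against 3, 2, 1 and 1 in WT. S100a8 and S100a9, which neutrophils also hold in quantity, had 1 and 4 counts in WT 1 and 0 elsewhere. Apart from what is stated below, the part of these differences in the results was not tested.

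Of the targets, 4 were lower in CD1d-KO epithelium, and the receptors were not called. Socs3, the feedback inhibitor of STAT3 signalling, was 2.14-fold lower, Saa1, an acute phase serum amyloid A protein, was nearly absent, Pigr, the transporter of polymeric IgA, was 14.9% lower, and Lcn2, an iron-sequestering antimicrobial protein, was 3.26-fold lower. Of the 10 genes, 9 passed the filter on low counts, all but Saa2, and 4 were called, all lower, at a DESeq2 adjusted p under 0.05. On simulated counts DESeq2 called more unchanged genes than edgeR, so its adjusted p-values may be too small. Among all genes, 4.04% of the 15383 tested genes were called, 2.39% lower and 1.66% higher. The 10 genes were chosen with earlier results of these data known, so shares of them beside those of all genes are descriptions and not independent evidence. All 9 fold changes were negative, beside 49.7% of all tested genes, and their median log2 fold change was -0.72, beside 0.000989 over all genes. The genotypes did not overlap in 3 of the 9, Socs3, Saa1 and Pigr, where over all tested genes 5.52% were lower and 4.11% higher in every CD1d-KO sample than in any WT sample (9.63% in either direction). Normalised counts by sample show these 3 genes apart and the receptors side by side. In such bulk samples fewer expressing cells and less RNA per cell cannot be told apart.

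**Figure D1:**
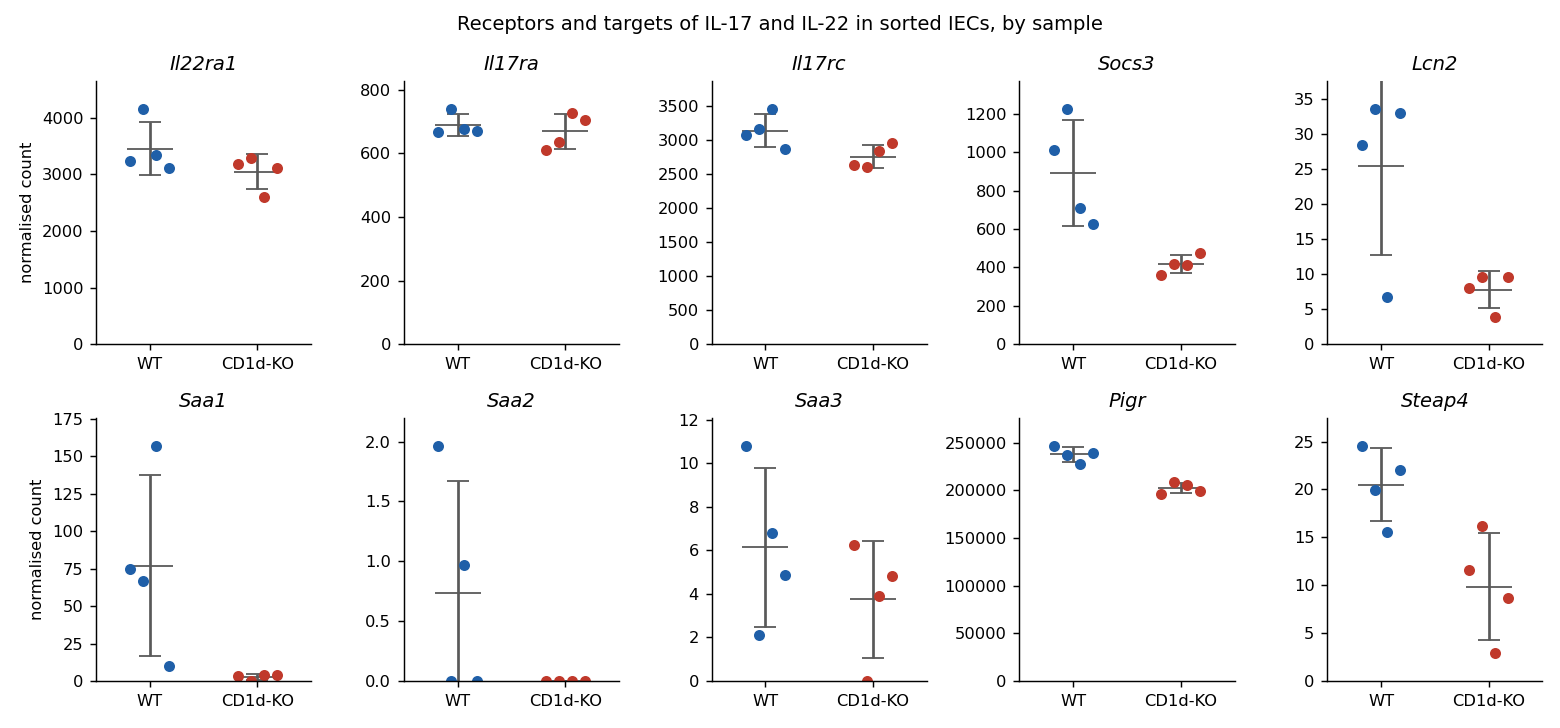
Normalised count (linear axis from 0, a separate scale for each gene) of the 10 genes in the 4 WT (blue) and 4 CD1d-KO (red) samples, with points in the order of replicate number and bars giving the mean ± SD. Socs3, Saa1 and Pigr do not overlap between genotypes, Lcn2 is low in 1 WT sample, and Il22ra1, Il17ra and Il17rc overlap.

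Per length, the genes spanned a wide range. In WT, Pigr stood at 4913 to 5375 TPM, far above Il17rc at 101 to 121 TPM, Il22ra1 at 44.5 to 58.8, Socs3 at 19.2 to 37.0 and Il17ra at 14.1 to 15.3, and none of these ranges overlapped. Below them came Saa1 (1.33 to 21.3 TPM), Lcn2 (0.66 to 3.24), Saa3 (0.33 to 1.71), Steap4 (0.41 to 0.66) and Saa2 (at most 0.27), each of whose ranges overlapped that of its neighbour apart from Steap4 and Saa2. The range of Saa1 also took in that of Il17ra and reached into that of Socs3. In CD1d-KO the order of the abundant genes was kept, with Pigr at 4256 to 4630 TPM, Il17rc at 93.9 to 102 and Il22ra1 at 35.8 to 48.4, but Socs3, at 11.3 to 14.4 TPM, overlapped Il17ra at 13.1 to 14.7. Saa1 (0 to 0.51 TPM) fell among Lcn2 (0.37 to 0.96), Saa3 (0 to 1.0) and Steap4 (0.07 to 0.44). Transcripts of the IL-17 receptor subunits were thus unequal in level in every sample, Il17rc being above Il17ra, and protein was not measured here.

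**Figure D2:**
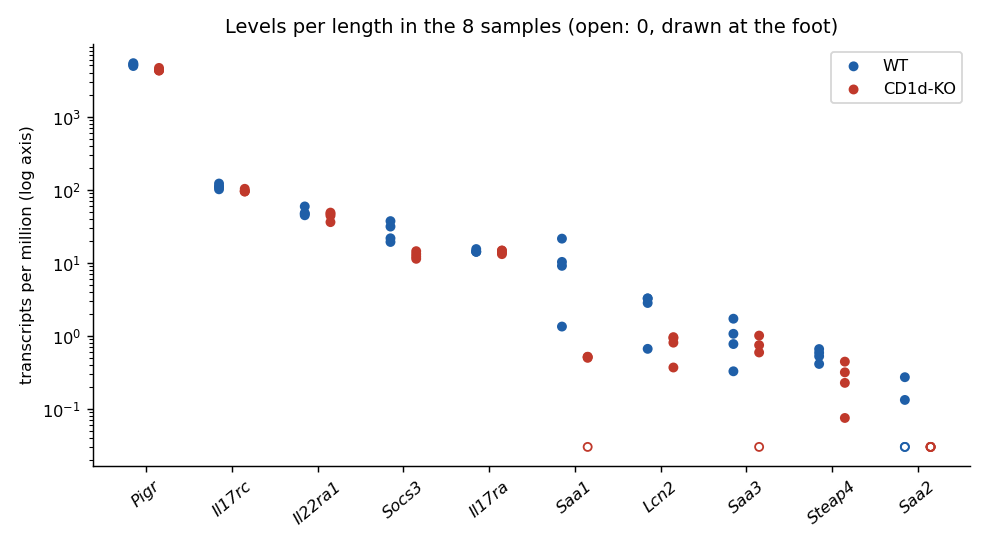
Level per transcript length (TPM, log axis) of each gene in every WT (blue) and CD1d-KO (red) sample, genes ordered by their mean, with values of 0 drawn as open circles at the foot. Pigr is highest in every sample, Steap4 and Saa2 lie at the foot, and the genotypes of Saa1 and Socs3 stand apart.

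The receptors were measured well and none was called. Il22ra1 (mm10 chromosome 4, 135728159 to 135755383), the IL-22-binding chain, had normalised counts, in the order of replicates 1 to 4, of 3183, 3294, 2609 and 3117 in CD1d-KO against 3233, 4153, 3342 and 3108 in WT. The genotypes overlapped, and the log2 fold change was -0.18 (95% interval -0.39 to 0.03; adjusted p = 0.429). Il17ra (chromosome 6, 120463197 to 120483727), the chain shared by several IL-17 receptors, had 609.7, 634.3, 727.3 and 704.7 in CD1d-KO against 666.6, 738.8, 677.7 and 670.0 in WT. Its log2 fold change was -0.04 (-0.21 to 0.13; adjusted p = 0.907), and its sign depended on the samples and covariates used, being 0.06 without the samples with Y-linked counts. Il17rc (chromosome 6, 113471455 to 113483163), the partner chain for IL-17A and IL-17F, had 2633, 2600, 2841 and 2957 in CD1d-KO against 3070, 3168, 3452 and 2866 in WT. It overlapped only through WT 4, with a log2 fold change of -0.19 (-0.34 to -0.04) that did not pass the adjustment (adjusted p = 0.170; exact two-sided permutation p = 0.0571). The intervals of the 3 receptors thus reach no lower than -0.39 on the log2 scale.

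Socs3 (chromosome 11, 117966087 to 117969366) encodes the suppressor of cytokine signalling that is induced by STAT3 and binds back to receptor complexes. CD1d-KO samples 1 to 4 stood at 361.2, 418.1, 412.5 and 476.2 normalised counts, against 1011.2, 1223.0, 706.8 and 625.9 in WT samples 1 to 4. Every CD1d-KO sample was below every WT sample, the lowest WT value being 1.31 times the highest CD1d-KO value, and the WT samples spread more. The means were 417 ± 47.0 in CD1d-KO and 891.7 ± 276 in WT (SD, n = 4), with a log2 change of -1.10 ± 0.18 (SE; DESeq2 adjusted p = 6.42e-07; edgeR adjusted p = 0.0141). The call was kept when any 1 sample was left out, and when the stomach score was a covariate (-1.35, adjusted p = 0.0175). Without the CD1d-KO samples with Y-linked counts the log2 fold change was -1.0 and the call was lost (adjusted p = 0.0900).

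The serum amyloid A genes lie together on chromosome 7 and encode acute phase proteins that bind lipids and retinol, made by the epithelium as well as the liver. Saa1 (46740497 to 46742980) was counted 4, 0, 4 and 4 times in CD1d-KO samples 1 to 4, against 76, 64, 162 and 8 times in WT samples 1 to 4. All CD1d-KO samples were below all WT samples, but WT 4 was far below the other WT samples, and the highest WT value was 16.1 times the lowest after normalisation. The normalised means were 2.83 ± 1.89 and 77.1 ± 60.6 (SD, n = 4), with a log2 change of -4.77 ± 0.98 (SE; DESeq2 adjusted p = 0.000137; edgeR adjusted p = 0.0141). The call was kept when any 1 sample was left out, with a log2 fold change from -5.14 to -4.16. Saa1 passed the low-count filter of edgeR through the WT samples, and it was not tested where at least 10 counts in at least 4 samples were required. With the stomach score as a covariate the log2 fold change was -3.67, its SE rose to 1.98 and the call was lost (adjusted p = 0.6). The score itself did not overlap between genotypes, so that fit cannot tell the score and genotype apart.

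Saa2 (46751833 to 46754314) had 0 counts in every CD1d-KO sample and 2, 0, 1 and 0 in WT, so both genotypes were at or under the floor of 3 counts that a count of 0 allows, and no fold is given. The transcripts of Saa1 and Saa2 were identical at 94.8% of 649 aligned bases and their upstream windows at 95.6% of 249, so reads could be placed at either gene, and RefSeq lists each symbol as a synonym of the other. With the counts of both genes summed the log2 fold change was -4.78 (adjusted p = 0.000134). Saa3 (46711998 to 46715676), whose transcript was identical to that of Saa1 at 71.6% of aligned bases, had 7, 0, 4 and 5 counts in CD1d-KO against 11, 2, 7 and 4 in WT. These overlapped, and at this depth no difference was detectable (log2 fold change -0.72, 95% interval -2.40 to 0.96; adjusted p = 0.799).

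Lcn2 (chromosome 2, 32384637 to 32387739) encodes lipocalin 2, which binds bacterial siderophores and is a usual marker of intestinal inflammation. CD1d-KO samples 1 to 4 held 9, 10, 4 and 10 raw counts, against 29, 32, 7 and 27 in WT samples 1 to 4. WT 3 lay among the CD1d-KO samples, while the other WT samples were all above them. Normalised means were 7.77 ± 2.67 and 25.5 ± 12.6 (SD, n = 4), with a log2 change of -1.70 ± 0.54 (SE; DESeq2 adjusted p = 0.0452). The call depended on the setting. Lcn2 did not pass the low-count filter of the main edgeR fit and was not tested there. Its call was kept in 5 of 17 alternatives, was lost in edgeR without a filter (adjusted p = 0.106), and among the fits that left out 1 sample it was kept without WT 3 alone and lost without any of the other 7, with an adjusted p of up to 0.255 without WT 2. The exact permutation p was 0.114. Lcn2 is also abundant in neutrophils, whose few counts, given above, were mostly in WT 1, and their part in the Lcn2 counts was not tested.

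Pigr (chromosome 1, 130826684 to 130852249) encodes the polymeric immunoglobulin receptor, which carries IgA and IgM across the epithelium into the lumen. It was the most abundant of the 10 genes, and CD1d-KO samples 1 to 4 stood at 196215, 208327, 205565 and 199608 normalised counts, against 246537, 237160, 227892 and 239504 in WT. The difference was small but the groups did not overlap, the lowest WT value being 1.09 times the highest CD1d-KO value, and the spread within each genotype was narrower than the gap between means of 202400 ± 5510 and 237800 ± 7700 (SD, n = 4). The log2 fold change was -0.23 ± 0.05 (SE; DESeq2 adjusted p = 0.000104; edgeR adjusted p = 0.0421). The call was kept when any 1 sample was left out and without the samples with Y-linked counts (adjusted p = 0.0411), and lost in edgeR without a filter (adjusted p = 0.101) and under the stomach score covariate (-0.30, adjusted p = 0.224).

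Steap4 (chromosome 5, 7960472 to 7982213), a metalloreductase of iron and copper whose upstream window held all 3 motifs, stood at 11.6, 16.2, 2.93 and 8.64 normalised counts in CD1d-KO samples 1 to 4, against 24.5, 19.9, 15.5 and 22 in WT. CD1d-KO 2 slightly exceeded WT 3 and the other CD1d-KO samples were below all WT samples. The log2 fold change was -1.05 (95% interval -2.0 to -0.10), which did not pass the adjustment (adjusted p = 0.251; exact permutation p = 0.0571), and it was called in 0 of 18 alternatives. The fold changes of all tested genes under the settings that moved them most are shown with the fits that left out 1 sample.

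**Figure D3:**
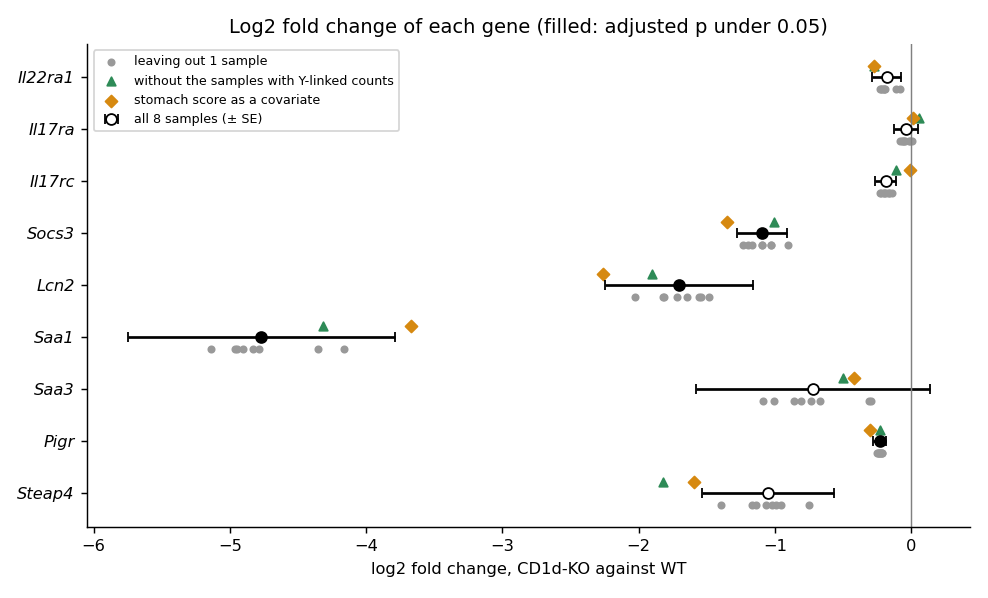
Log2 fold change, CD1d-KO against WT, of the 9 tested genes, with circles and bars for all 8 samples (± SE; filled where the DESeq2 adjusted p was under 0.05), grey points for the fits that left out 1 sample, triangles without the samples with Y-linked counts and diamonds under the stomach score covariate. Saa1, Lcn2, Socs3, Steap4 and Pigr stay below 0 under these settings, and Il17ra crosses 0.

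The rest of the pathway was described with 86 further genes, grouped by role, of which 62 were tested and 19 called, 17 lower and 2 higher. That is 30.6% of those tested, against 4.04% of all genes, with a median log2 fold change of -0.16. These lists too were chosen with earlier results of these data known, so their shares describe the listed genes and are not independent evidence of a change in the pathway. Of the 62 tested, 24 did not overlap between genotypes, 21 lower and 3 higher, which is 38.7% against 9.63% of all genes. With edgeR 15 of the 19 were called, at adjusted p-values from 0.00165 to 0.0480, and Fut2, C3, Lbp and Steap3 were not. Without the samples with Y-linked counts 13 pathway genes were called, 12 of them among the 19. The cytokines themselves were barely detected in the sorted cells. Il17a, Il17b, Il22, Iltifb, Il20 and Il24 were at 0 counts in all 8 samples, which allows up to 3 counts in each, and 0 of 4 tested ligands were called. Il17c, a family member that epithelium makes, had 2.68, 3.81, 0.978 and 5.76 normalised counts in CD1d-KO against 8.84, 10.5, 7.76 and 8.56 in WT. Its genotypes did not overlap, but its levels were low and it was not called (log2 fold change -1.43, adjusted p = 0.281). Il17d (-0.11, adjusted p = 0.907) and Il23a (-0.19, adjusted p = 0.950) overlapped between genotypes. Of the other receptor chains 0 of 5 tested were called, the lowest p-values being those of Il17rb (-0.27, adjusted p = 0.401), Il17re (-0.31, 0.461) and Il10rb, the partner of IL22RA1 (0.09, 0.615).

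Of 21 tested genes of signalling, 5 were called and all were lower, with a median log2 fold change of -0.18 over the 21. Stat3, the main transcription factor downstream of IL-22, had 2117, 2215, 2524 and 2442 normalised counts in CD1d-KO against 3013, 3070, 3073 and 2747 in WT. The groups did not overlap (log2 fold change -0.36, DESeq2 adjusted p = 0.000302). Bcl3, an atypical IkB protein, fell by 0.53 on the log2 scale (adjusted p = 3.09e-09), Zc3h12a, an RNase that degrades inflammatory mRNAs, by 0.84 (5.18e-07), Cebpd, a C/EBP factor, by 0.93 (0.000545) and Tnfaip3, the deubiquitinase A20, by 0.36 (0.00322). Bcl3, Zc3h12a and Cebpd were called under all 18 alternatives, whereas Stat3 and Tnfaip3 were not with the stomach score as a covariate (adjusted p = 0.605 and 0.558) or without the samples with Y-linked counts (-0.26, adjusted p = 0.0829, and -0.34, 0.113). The adaptor Traf3ip2 (-0.14, adjusted p = 0.313), Rela (-0.10, 0.581) and Nfkb1 (0.04, 0.840), all chosen after their values were seen, were not called. Among the other members of the SOCS family 0 of 7 were called. Socs1 (-0.74, adjusted p = 0.124) and Cish (-0.51, 0.205) had the lowest p-values, followed by Socs7 (-0.05, 0.845).

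The list of other targets held 29 genes, of which 21 were tested and 13 called, 12 lower and 1 higher, with a median log2 fold change of -1.03. Reg3g and Reg3b, antimicrobial lectins, were lower in CD1d-KO by 1.25 and 1.45 on the log2 scale (adjusted p = 7.22e-05 and 0.00177). Reg3g stood at 13065 to 18867 normalised counts in CD1d-KO and 20935 to 46525 in WT, whereas Reg3b overlapped because WT 4, at 21980, was far below the other WT samples. Reg3a, of the same family, was the exception, with 2006, 2601, 3522 and 3202 in CD1d-KO against 1459, 1873, 1740 and 1309 in WT (0.83, adjusted p = 3.01e-05). Duox2, an oxidase that makes hydrogen peroxide at the cell surface, changed by -1.20 (adjusted p = 2.21e-12), and Duoxa2, its maturation factor, by -1.64 (1.12e-13).

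Further targets were lower. Among surface and secreted glycoproteins Dmbt1 changed by -0.56 (adjusted p = 1.13e-14), Muc13 by -0.40 (8.41e-09) and Muc1 by -3.37 (2.41e-07), and Fut2, which adds terminal fucose, by -1.19 (0.00564). Muc1 had 2.68 to 14.4 normalised counts in CD1d-KO and 30.4 to 126 in WT, and it passed the low-count filter of edgeR through the WT samples. Ccl20, the chemokine that draws CCR6+ lymphocytes, had 60.8, 52.4, 23.5 and 36.5 normalised counts in CD1d-KO against 124.7, 132.0, 98.9 and 134.5 in WT (-1.50, adjusted p = 2.52e-06). Retnlb, a goblet cell protein, was counted 1, 2, 3 and 2 times in CD1d-KO against 23, 23, 43 and 11 in WT (-3.75, adjusted p = 7.59e-06), and it passed the filter on low counts through the WT samples. C3, the central complement component, changed by -1.36 (adjusted p = 0.00121) and Lbp, which binds lipopolysaccharide, by -1.03 (0.0317). With edgeR the calls of Fut2 (adjusted p = 0.0968), C3 (0.0572) and Lbp (0.118) were lost, that of Fut2 was also lost without CD1d-KO 1, WT 1 or WT 3, and that of Lbp was kept without CD1d-KO 1 or WT 3 alone. Duox2, Duoxa2 and Ccl20 were called under all 18 alternatives. With the stomach score as a covariate 7 pathway genes were called, these 3, Bcl3, Zc3h12a and Cebpd, which were among the 19, and Nox1, another oxidase of the epithelium, which was not (adjusted p = 4e-05). Under that covariate the log2 fold change of Muc1 was -0.99 (adjusted p = 0.772), that of Fut2 -0.17 (0.971), that of C3 -0.55 (0.871) and that of Retnlb -3.0 (0.418). The calls of Reg3g (adjusted p = 0.313), Reg3b (0.519), Reg3a (0.469), Dmbt1 (0.0963), Muc13 (0.101) and Lbp (0.469) were lost as well. Without the samples with Y-linked counts those of Reg3g (adjusted p = 0.0546), Reg3b (0.129), Fut2 (0.147) and C3 (0.0572) were lost. Of the 4 tested relatives of the targets, 1 was called, Steap3 (0.27, adjusted p = 0.0258), which was higher and lost its call with edgeR (0.0872) and in 7 of the 8 fits that left out 1 sample, CD1d-KO 4 being the exception. Steap1 (-0.09, adjusted p = 0.859) and Steap2 (0.06, 0.811), both chosen after their values were seen, were not called.

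**Figure D4:**
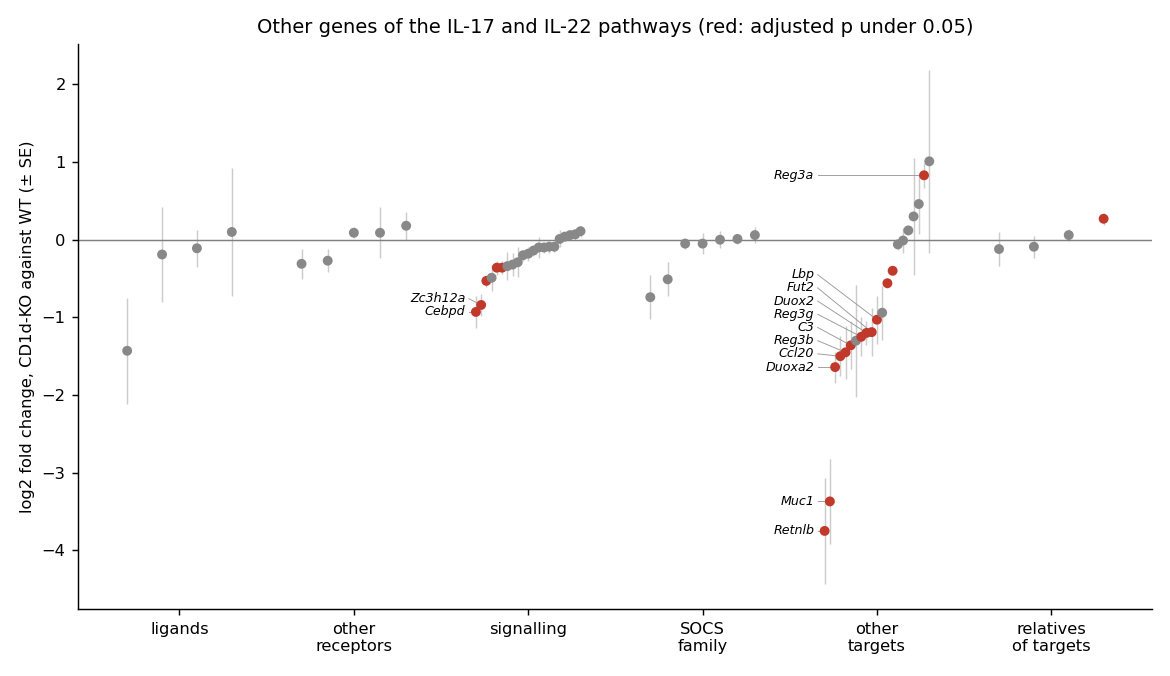
Log2 fold change, CD1d-KO against WT (± SE), of the 62 tested pathway genes outside the 10, grouped by role, with red points for genes called at a DESeq2 adjusted p under 0.05. No ligand, other receptor or SOCS gene is red, 5 signalling genes and 12 targets are red below 0, and Reg3a and Steap3 are red above 0.

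The 23 called genes, 4 of the 10 and 19 of the wider pathway, are shown sample by sample. WT 4 was the WT sample nearest to CD1d-KO for Socs3, Saa1, Reg3b, Reg3g, Duox2 and Duoxa2. WT 3 was so for Lcn2, Ccl20 and Pigr, but it was the highest WT sample for Saa1. As a description of likeness, the profile of each gene over the 8 samples was compared with those of 11716 genes of moderate or high count, by the root mean square (RMS) difference of their centred log2 values. Those nearest to Lcn2 were Uckl1os (RMS 0.51), Ccl20 (0.57) and Ctrl (0.58), those nearest to Saa1 were Mal (1.39), Gzma (1.41) and Clu (1.44), and those nearest to Pigr were Commd4 (0.0285), D030056L22Rik (0.0297) and Gga3 (0.0459). Uckl1os is an opposite-strand transcript, whose reads cannot be told from those of its partner gene without strand. Lcn2 and Saa1 themselves differed by an RMS of 2.18.

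**Figure D5:**
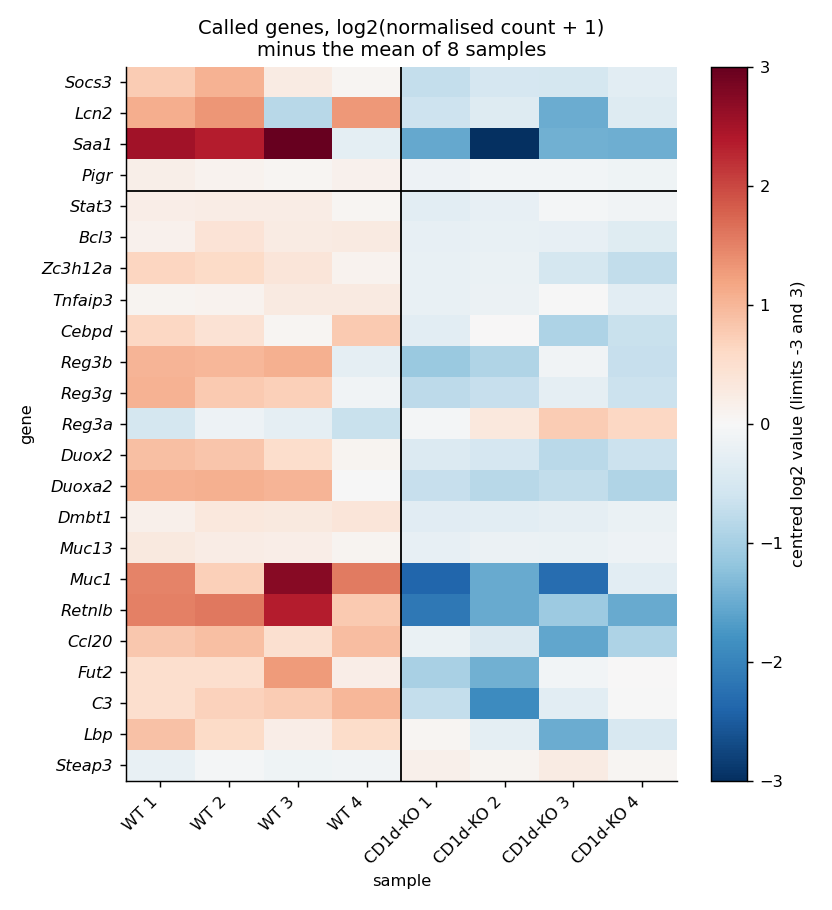
Heat map of the called genes, each cell giving log2(normalised count + 1) minus the gene's mean over the 8 samples (red above, blue below, colours limited at -3 and 3), with WT samples to the left of the vertical line and CD1d-KO to the right. All genes but Reg3a and Steap3 are higher in WT, with WT 3 low for Lcn2 and WT 4 low for Saa1 and Reg3b.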

How the data were processed

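Raw fragment counts per gene were deposited by the authors as a table of 8 columns, with no normalization. Per the file headers, featureCounts 1.6.4 had assigned fragments to the exons of each gene, by primary alignment and ignoring strand, on an mm10 annotation, whereas the study's methods name HISAT2 alignment to GRCm39. Coordinates are those of the table. Genotypes came from the labels. The table held 0 per-sample columns that were not used, and the authors' gene lengths gave TPM.

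The genotypes were compared in the full table with the study's tool, DESeq2 1.42.0 (R 4.3.3), by genotype alone, and genes with a Benjamini-Hochberg adjusted p under 0.05 were called. Independent filtering (threshold 2.53 on the mean normalised count) and Cook's rule left 3705 of 19088 genes with counts untested. edgeR's quasi-likelihood test (edgeR 4.0.16) was the main alternative, and its calls are given as adjusted p-values for those of the 10 genes that it called and as counts for the pathway. Exact permutation tests were two-sided over 70 assignments of 4 and 4, with a smallest p of 0.0286. The stomach score was the mean centred log2 normalised count of the stomach markers. It was lower in every CD1d-KO sample (-2.56 to 0.18) than in any WT sample (0.90 to 3.15). A call lost with this covariate therefore cannot be assigned to stomach transcripts or to genotype. Nearest profiles were sought among genes whose normalised counts averaged 50 or more.

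The named genes were the 10, the called genes of each pathway list or else its 3 lowest p-values, the 3 nearest profiles of Lcn2, Saa1 and Pigr, and Cd1d1, Epcam, Ptprc and Jchain. Others were chosen after their values were seen. The 10 genes and all lists were chosen with earlier results of these data known. Alternatives were TMM factors, other filters, no Cook's rule, a replicate block, each sample left out, the samples with Y-linked counts left out, the stomach score as a covariate and Saa1 and Saa2 summed. Samples of the same genotype differed beyond sampling noise (chi-square over its degrees of freedom, 9.73 to 37.17), as copies of a library would not. A result for 1 marker gene is not reported here.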

Additional observations from a re-analysis of the deposited data

Results flagged for a closer look

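In 6 of 58 groups of 4 samples, 1 sample stood apart from the other 3 by Dixon's criterion, which chance meets in about 1 in 20 groups. Among the 10 genes these were Lcn2 in WT 3 (6.786 normalised counts, low), Saa1 in CD1d-KO 2 (0, low, against counts of 4 in the others) and Il17ra in WT 2 (738.8, high). Among the pathway genes called they were Reg3b in WT 4 (21980, low), Duoxa2 in WT 4 (393.7, low) and Bcl3 in CD1d-KO 4 (1270, low). WT 3, which was low for Lcn2, had the highest stomach score of the 8 samples (3.15), and WT 4 the next (2.22). WT 3 was also the highest WT sample for Saa1, and the part of the score in these values was not tested.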

How the results depend on the processing

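Of the 10 genes 4 were called, all lower, and 3 or 4 were called under every alternative apart from 3. There were 2 among samples lacking Y-linked counts (Saa1 and Pigr), 1 with the stomach score as a covariate (Socs3) and 2 in edgeR without a filter on low counts (Socs3 and Saa1), the last an alternative added after seeing the data. Leaving out each sample in turn gave 3 to 4. Of the pathway genes 19 were called, 7 with the stomach score as a covariate, 13 without the samples with Y-linked counts, 15 in edgeR and 16 to 20 when a sample was left out. Il17ra turned from -0.04 to 0.058 when the samples with Y-linked counts were left out and to 0.011 with the stomach score, and ranged from -0.084 to 0.0025 when a sample was left out, being above 0 without CD1d-KO 1. The causes were not tested. Of the values of single genes under an alternative, 445 kept their direction and side of the threshold, 61 kept only their direction and 3 reversed. Over all genes the 622 calls became 228 in edgeR, 299 in edgeR without a filter, 371 among samples lacking Y-linked counts, 95 with the stomach score, and 323 to 645 when a sample was left out, the fewest without CD1d-KO 2 (323), WT 2 (385) and WT 1 (409).

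The labels number the replicates of both genotypes 1 to 4, but same-numbered samples deviated together only weakly (r from 0.004 to 0.285 across 11721 genes), so the numbers were not taken to pair the samples. With a replicate block 3 of the 10 genes and 21 pathway genes were called, and Lcn2 was not (-1.62, adjusted p = 0.124). Fits with 3 samples in a genotype, or 2 without those with Y-linked counts, have less power. So does the fit with the stomach score, which did not overlap between genotypes. Counts of Lcn2, Steap4, Saa2 and Saa3, and those of Saa1 in CD1d-KO, are limited by depth.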
